A study of Mus musculus with 36 samples.

Results

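The regions described here are accessible chromatin sites that lie far from any protein-coding gene in dendritic cells grown from mouse bone marrow. They are the peaks of the deposited peak list that lay on chromosomes 1 to 19, were shorter than 5000 bp, and lay more than 100 kb from the body of every protein-coding gene of the mouse genome. All positions given here are in build mm10. This rule uses positions only and no counts. It kept 7902 of 119751 peaks (6.60%), and these are called distal regions below. Of them, 7876 had enough counts to be tested, and the other 26 enter no count of calls.

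The assay was ATAC-seq: a transposase cuts and tags DNA where chromatin is open, so a peak gathers more reads the more accessible it is. The cells were cultured from bone marrow of female C57BL/6 mice aged 6 to 8 weeks with the growth factor GM-CSF at 15 ng/mL, stimulated for 6 h with ligands of pattern recognition receptors. For each library 50000 cells were lysed. The design compares 3 triplets of ligands with the pairs and single ligands that make them up, in 18 groups of 2 libraries each. The control group is labelled Ctrl and names no ligand. The labels name 6 single ligands: P stands for PAM, L for LPS, H for HMW, S for SeV, cG for 3',3'-cGAMP and Z for Zymosan depleted. The 8 pairs are PL, PH, LH, PS, PcG, ScG, ZS and ZcG, and the 3 triplets are PLH, PScG and ZScG, each written with the letters of its ligands. Every group shares the strain, the GM-CSF culture and the time. No group carries a labelled genetic change, and ligand doses are not given in the sources used here. The labels do not say whether the 2 libraries of a group came from separate cultures or mice, so all p-values below measure only the spread between these libraries, which may be technical.

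Chromatin far from genes holds enhancers, which are stretches of DNA bound by transcription factors that can act on a promoter over a long distance, as well as the promoters of non-coding RNAs and sites bound by the insulator protein CTCF. In dendritic cells the myeloid factor PU.1 keeps many such sites open before any stimulus. Lipopolysaccharide is sensed by the receptor TLR4 and cyclic dinucleotides such as 3',3'-cGAMP by STING. The signals reach chromatin through factors such as AP-1, NF-kappaB and the interferon regulatory factors.

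A set of 2078 distal regions (26.3%) overlapped a gene that does not code for protein, 1795 of them a long non-coding RNA gene, and the other 5824 overlapped no annotated gene at all. The promoter window of a non-coding gene, 250 bases before to 50 after its start, overlapped 118 distal regions and lay wholly inside 57 of them. Shown next are 6 of these windows, all wholly inside a distal region, chosen after their values were seen because the region opened or closed in a pattern described below. They are Gm29010 (chr2:128433460-128433759, plus strand), Morrbid (chr2:128429302-128429601, minus strand), 4930471E19Rik (chr10:120636058-120636357, minus strand), Gm12708 (chr4:95193054-95193353, plus strand), Gm38397 (chr13:110903249-110903548, plus strand) and Mir99ahg (chr16:77329078-77329377, plus strand). Sequences are from RefSeq, build GRCm38.p6, written 5′ to 3′ along the gene's strand, and capitals mark matches on either strand to the motifs AP-1 TGANTCA, PU.1 GAGGAAGT, NF-kappaB (GGG, any 5 bases, CC), ISRE (GAAA, any 2 bases, GAAA) and CTCF (CCA, any 2 bases, AGG, any base, GGC).
Gm29010: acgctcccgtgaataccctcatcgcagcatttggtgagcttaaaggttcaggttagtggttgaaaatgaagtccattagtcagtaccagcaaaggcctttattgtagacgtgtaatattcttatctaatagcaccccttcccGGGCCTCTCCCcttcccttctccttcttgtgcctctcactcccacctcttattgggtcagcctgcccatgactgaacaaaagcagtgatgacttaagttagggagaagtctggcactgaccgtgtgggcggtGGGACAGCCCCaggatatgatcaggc
Morrbid: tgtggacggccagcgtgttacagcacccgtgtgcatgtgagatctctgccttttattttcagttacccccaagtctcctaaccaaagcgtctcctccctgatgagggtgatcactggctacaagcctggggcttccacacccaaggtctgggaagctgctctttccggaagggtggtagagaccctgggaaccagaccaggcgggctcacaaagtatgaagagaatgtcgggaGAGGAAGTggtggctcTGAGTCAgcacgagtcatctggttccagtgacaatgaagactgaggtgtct
4930471E19Rik: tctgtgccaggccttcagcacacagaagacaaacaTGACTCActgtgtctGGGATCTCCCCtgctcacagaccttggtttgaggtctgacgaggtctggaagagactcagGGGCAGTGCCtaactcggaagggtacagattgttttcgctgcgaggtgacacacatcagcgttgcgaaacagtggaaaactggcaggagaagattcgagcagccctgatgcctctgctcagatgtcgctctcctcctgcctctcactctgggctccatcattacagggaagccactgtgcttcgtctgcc
Gm12708: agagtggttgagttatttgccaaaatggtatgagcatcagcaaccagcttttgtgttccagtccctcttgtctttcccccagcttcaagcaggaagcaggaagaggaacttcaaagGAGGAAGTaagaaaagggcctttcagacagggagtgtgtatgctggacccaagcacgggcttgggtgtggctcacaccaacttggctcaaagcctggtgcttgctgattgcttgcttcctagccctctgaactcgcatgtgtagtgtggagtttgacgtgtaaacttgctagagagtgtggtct
Gm38397: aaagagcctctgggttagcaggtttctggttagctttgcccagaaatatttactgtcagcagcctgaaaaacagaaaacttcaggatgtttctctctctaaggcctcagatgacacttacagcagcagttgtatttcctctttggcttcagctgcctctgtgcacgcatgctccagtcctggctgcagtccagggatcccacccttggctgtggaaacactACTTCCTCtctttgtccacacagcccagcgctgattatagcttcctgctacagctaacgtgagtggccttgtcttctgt
Mir99ahg: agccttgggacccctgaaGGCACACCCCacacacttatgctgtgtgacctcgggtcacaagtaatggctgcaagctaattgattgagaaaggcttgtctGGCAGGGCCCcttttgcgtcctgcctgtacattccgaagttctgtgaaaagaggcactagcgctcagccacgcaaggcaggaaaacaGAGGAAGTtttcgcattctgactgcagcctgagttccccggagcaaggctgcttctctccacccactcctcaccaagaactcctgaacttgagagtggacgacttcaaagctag

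The Morrbid window held a PU.1 and an AP-1 match, the 4930471E19Rik window an AP-1 match and overlapping NF-kappaB matches. The windows of Gm12708, Gm38397 and Mir99ahg a PU.1 match each. The Gm29010 and Mir99ahg windows also held NF-kappaB matches. Among the 118 non-coding promoter windows that overlapped a distal region, 18.6% held the AP-1 letters, against 7.85% of 31363 promoter windows of all genes. The PU.1 letters were in 11.02% against 3.25%, and the ISRE letters in 4.24% against 3.45%. The short, G-rich and C-rich NF-kappaB pattern was in 39.0% against 51.3%, and the CTCF letters were in none of the 118 against 0.931%. These shares describe letters in a window, without a test, and do not show that a factor was bound.

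Distal regions were short, with a median length of 411 bp against 450 bp for all peaks, and a median mean signal of 1.84 CPM (counts scaled to library size) against 2.15. The list held 4378 regions between 100 and 200 kb from the nearest protein-coding gene, 2751 between 200 and 500 kb, and 773 beyond 500 kb. They were unevenly spread: chromosome 13 held 816 of them (13.6% of its peaks) and chromosome 7 held 147 (2.17%). Each library had 19097027 to 39977088 counts in peaks, of which 44.1% to 63.1% fell on the mitochondrial genome, and 670300 to 1230433 counts fell in distal regions. The groups Ctrl, Z, ZcG, ScG and ZScG had mitochondrial shares of 57.3% to 63.1% and the other 13 groups 44.1% to 58.1%, or at most 53.8% without ZS, so against the control the ligand and this share cannot be told apart in most stimulations. The correlation of log2 CPM over distal regions was 0.859 to 0.940 between the libraries of a group and 0.652 to 0.934 between libraries of different groups. Peaks were present within 1 kb of an end of all 6 dendritic cell marker genes looked up and all 4 of macrophages and monocytes, and of none of the T cell genes Cd3e, Cd3g and Cd8a or of Pax5, Ncr1, Mpo and Elane. Markers of other cells with a peak were Cd79a (median 10.4 CPM over libraries), Klrb1c (12.3) and S100a8 (12.1), and S100a8, a granulocyte and monocyte gene, stood at 20.5 and 17.2 CPM in the control and 8.11 and 9.66 with S. In bulk libraries, fewer cells with an open site and less opening per cell cannot be told apart, and the part of other cell types in the results was not tested.

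Most distal regions were called in at least 1 stimulation, and for several ligands they closed more often than peaks in general. A region was called when its adjusted p against the control was under 0.05 in edgeR's quasi-likelihood test over all 119464 tested peaks. By this rule, 5736 of the 7876 tested distal regions were called in 1 or more of the 17 stimulations, leaving 2140 called in none (79586 of all 119464 tested peaks were called at least once). With P, 1104 distal regions (14.0%) were called higher and 863 (10.96%) lower, against 11.1% and 9.45% of all tested peaks, so both directions were somewhat more frequent among distal regions. L gave 840 higher (10.7%) and 1214 lower (15.4%), where 11.2% and 11.1% of all peaks were called. The skew was larger with S, where 1040 rose (13.2%) and 1711 fell (21.7%) beside 14.1% and 13.8% of all peaks, and with cG, where 776 rose (9.85%) and 1538 fell (19.5%) beside 11.6% and 11.6%. With H, 436 rose (5.54%) and 439 fell (5.57%), close to the 5.21% and 5.46% of all peaks. Z was the ligand that mostly opened distal regions: 447 rose (5.68%) and 126 fell (1.5998%), against 4.16% and 1.75%. The median log2 fold change over distal regions was -0.26 with S, -0.29 with cG, -0.14 with L, -0.04 with P, -0.03 with H and 0.06 with Z, where the medians over all tested peaks lay between -0.04 and 0.03. All 17 comparisons share the same control libraries.

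The combinations that contain S or cG also closed a larger share of distal regions than of all peaks. PS raised 1319 distal regions (16.7%; all peaks 17.3%) and lowered 1814 (23.0%; 16.2%), and PcG raised 1336 (16.96%; 16.8%) and lowered 1667 (21.2%; 16.2%). ScG raised 1144 (14.5%; 14.4%) and lowered 1446 (18.4%; 13.3%). ZS raised 1036 (13.2%; 14.4%) and lowered 1526 (19.4%; 14%), and ZcG raised 966 (12.3%; 11.4%) and lowered 1186 (15.1%; 10.2%). The largest counts of calls came with the triplet PScG, which raised 1376 (17.5%; 19%) and lowered 1893 (24.04%; 18.1%). ZScG raised 1173 (14.9%; 16.2%) and lowered 1754 (22.3%; 16.1%). The group mean of the mitochondrial share was 59.4% in ScG, 63.0% in ZcG and 58.3% in ZScG, beside 61.0% in the control, and the part of this share in the counts was not tested. The combinations of P, L and H were more even: PL raised 1272 (16.2%; 13.8%) and lowered 1207 (15.3%; 13.5%), PH raised 1372 (17.4%; 13.6%) and lowered 1084 (13.8%; 12.8%). LH raised 993 (12.6%; 11.3%) and lowered 926 (11.8%; 10.5%), and PLH raised 1359 (17.3%; 14.9%) and lowered 1290 (16.4%; 14.7%).

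The split between opening and closing depends on how libraries are scaled. With libraries scaled by their total counts outside the mitochondrial genome, without the TMM factor, the median log2 fold change of all peaks became 0.285 with P, 0.366 with S, 0.343 with cG and 0.452 with L. The share of called distal regions that were higher then moved from 56.1% to 82.0% with P, 40.9% to 76.2% with L, 49.8% to 86.5% with H, 37.8% to 62.7% with S and 33.5% to 59.0% with cG. It moved from 51.3% to 72.3% with PL, 55.9% to 79.2% with PH, 51.7% to 77.1% with LH, 42.1% to 67.2% with PS, 44.5% to 70.5% with PcG. For other groups it went from 40.4% to 54.4% with ZS, 51.3% to 74.3% with PLH and 42.1% to 61.8% with PScG. Dropping the TMM factor shifts all peaks of a contrast by about the same amount. The median over distal regions minus the median over all peaks could therefore hardly move. It was -0.26 and -0.26 with S, -0.30 and -0.30 with cG, and -0.16 and -0.17 with L. Offsets that depend on abundance can shift weak and strong peaks differently. With them the difference was -0.28 with S, -0.29 with cG and -0.19 with L. For H it was -0.08 with these offsets and -0.05 in the TMM-scaled fit. Under total-count scaling 12.5% of distal regions were called lower with S beside 6.04% of all peaks, and 11.8% beside 5.34% with cG. Directions below are those of the TMM-scaled fit and are to be read relative to the other peaks.

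**Figure D1:**
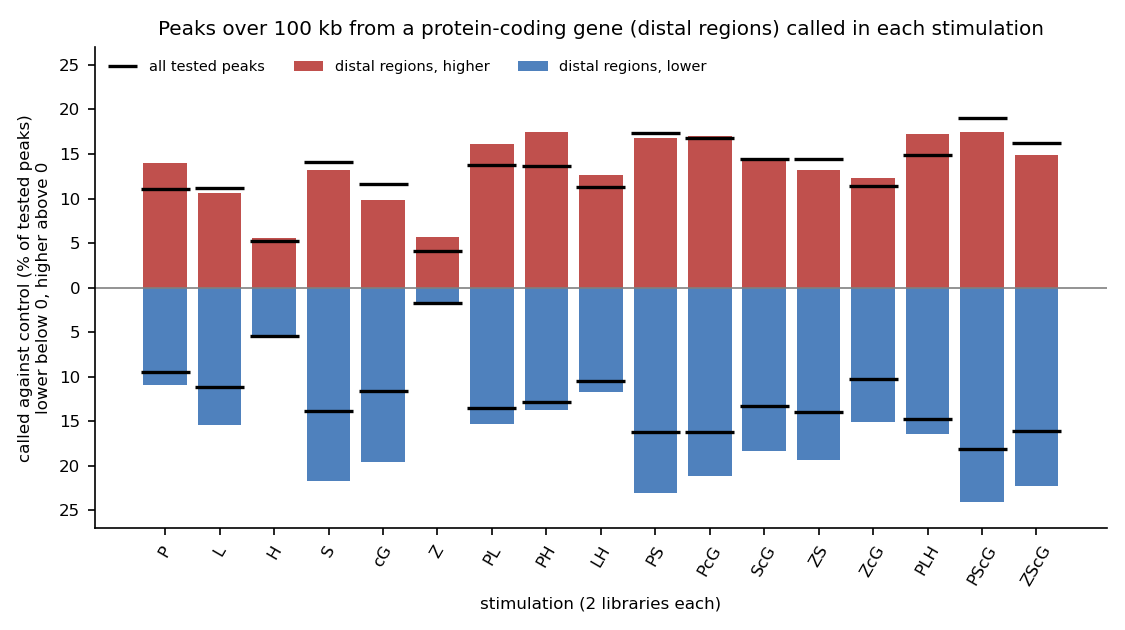
Share of tested distal regions called higher (above 0) and lower (below 0) against the control in each of the 17 stimulations, in percent, as bars, with the same shares over all tested peaks as black lines. With S, 21.7% of distal regions were lower against 13.8% of all peaks, while with Z 5.68% were higher and 1.5998% lower.

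Outside genes, the share of peaks called lower rose with the distance from genes with P, L, H, S and cG. With S, 13.5% of peaks inside protein-coding genes were called lower, 9.96% of those outside genes within 10 kb, 14.1% between 10 and 100 kb, 19.2% between 100 and 200 kb, 22.8% between 200 and 500 kb and 32.0% beyond 500 kb. The share called higher with S went the other way, from 15.4% within 10 kb to 14.4%, 12.5% and 9.21% in the classes beyond 100 kb. With cG the share called lower was 8.38% within 10 kb and 29.1% beyond 500 kb, and with L it was 7.203% and 23.7%. P showed a shallower slope, with 6.44% lower within 10 kb and 15.7% beyond 500 kb, and Z showed none, with 1.57% and 1.30%. Inside genes 10.2% of peaks were lower with P, above the 9.79% between 100 and 200 kb. The shares lower with H were 6.28% inside genes, 3.25% within 10 kb, 4.77% between 100 and 200 kb and 8.69% beyond 500 kb. Under total-count scaling, which shifts near and far peaks alike, the shares called lower with S were 9.74%, 14.4% and 20.9% in the classes beyond 100 kb. With offsets that depend on abundance they were 19.9%, 23.6% and 32.2%.

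The excess of closing regions with S was present in each range of signal strength. Among peaks with a mean under 1 CPM, 10.4% of distal regions and 5.27% of all peaks were called lower, and at 5 CPM or more 37.8% and 24.4%. These are descriptions of peaks that share 2 libraries a group, and no test was made of the slope.

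**Figure D2:**
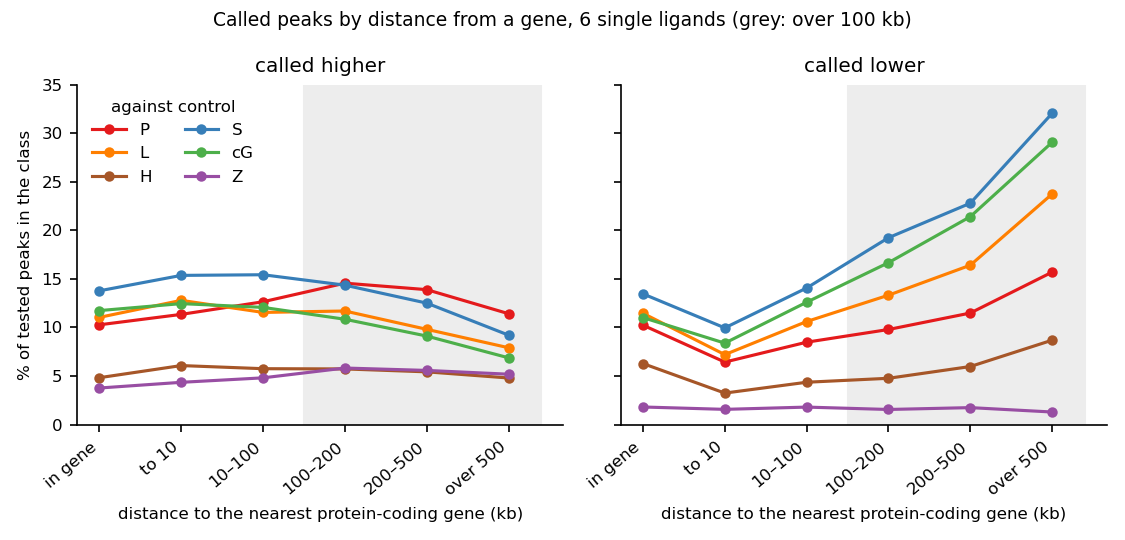
Share of tested peaks called higher (left) and lower (right) against the control, in percent, by the distance in kb to the nearest protein-coding gene, one line for each of the 6 single ligands; the grey area marks the distal regions. The lines of S and cG climb to 32.0% and 29.1% lower beyond 500 kb, and the line of Z ends at 1.30%.

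Called higher in all 17 stimulations were 90 distal regions (1.14% of those tested), beside 1.03% of all peaks (1230). Called lower in all 17 were 45 (0.571%), beside 0.460% of all peaks (550), so both shares are near those of all peaks. The regions in this and the next paragraphs with high counts were chosen after their values were seen, and those named by a rule of rank are said to be. The strongest of those always higher is chr16:84602917-84604541, 114 kb from Mrpl39, which encodes a protein of the mitochondrial ribosome. It had 7.10 and 7.24 CPM in the 2 control libraries, 41.1 and 38.4 with P, 45.2 and 40.5 with L, 29.98 and 28.5 with H, 43.2 and 41.9 with S, 41.1 and 43.6 with cG and 29.3 and 25.5 with Z, and 27.9 to 49.4 CPM (median 43.0) over the 22 libraries of the combinations. No stimulated library came near the controls, and H and Z gave the lowest levels of the single ligands. The log2 fold change was 2.57 ± 0.14 (SE, adjusted p = 1.83e-41) with S and 1.93 ± 0.15 (SE, adjusted p = 5.05e-24) with Z.

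The region chr13:63708558-63709285, 102 kb from the DNA repair gene Ercc6l2 and inside the long non-coding gene 1700024I08Rik, was nearly closed in the control, at 0.656 and 0.0965 CPM. It opened to 11.9 and 10.1 with P, 5.51 and 5.28 with L, 3.81 and 5.34 with H, 11.9 and 9.16 with S, 8.67 and 8.24 with cG and 3.28 and 5.04 with Z. P raised it by 4.90 ± 0.37 (SE, adjusted p = 3.01e-26) on the log2 scale. A region 270.5 kb from Htr2a, a serotonin receptor gene, at chr14:74369592-74370381, was graded among the ligands: 1.42 and 2.12 CPM in the control, 6.18 and 7.44 with P, 5.77 and 6.71 with Z, 9.02 and 10.3 with H, 11.6 and 12.1 with L, 15.1 and 13.04 with cG and 17.01 and 19.8 with S. S raised it by 3.36 ± 0.24 (SE, adjusted p = 2.17e-28) on the log2 scale and P by 1.92 ± 0.27 (SE, adjusted p = 1.64e-09). Adding S to P raised it further, by 1.396 ± 0.18 (SE, adjusted p = 5.02e-11). The region chr10:17414908-17415533, 308 kb from Cited2, whose product binds the coactivator CBP/p300, had 0.546 and 0.193 CPM in the control, 2.59 and 1.66 with P, 2.83 and 2.70 with L, 1.84 and 2.59 with H, 8.70 and 10.5 with S, 6.37 and 3.94 with cG and 2.62 and 1.05 with Z. Its highest single-ligand levels were those of S, and the log2 fold change was 4.71 ± 0.42 (SE, adjusted p = 3.54e-20) with S and 2.53 ± 0.53 (SE, adjusted p = 6.91e-05) with P. In contrast, chr14:76755378-76756349, 198 kb from Serp2, was highest with P, at 33.9 and 38.4 CPM against 3.93 and 4.24 in the control and 20.8 and 20.4 with S. Its rise was 3.14 ± 0.18 (SE, adjusted p = 8.79e-39) for P and 2.33 ± 0.18 (SE, adjusted p = 3.10e-24) for S on the log2 scale.

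Ranked by rule, the 3 regions called higher in most stimulations, with ties broken by the median fold change, had no count at all in either control library, so their folds are lower bounds set against a floor of 3 counts per library. At chr4:58681976-58682356, 102 kb from the olfactory receptor gene Olfr267, the 34 stimulated libraries had 0.239 to 3.70 CPM (median 1.505), at least 5.396-fold higher with S and at least 11.5-fold with PScG. The region chr2:128439815-128440151, 151 kb from Spdye4c and inside the Morrbid gene cluster described below, had 0.569 to 2.58 CPM (median 0.913) and was at least 5.98-fold higher with cG. The region chr17:4275772-4276003, 579.5 kb from the NADPH oxidase gene Nox3, had 0 to 2.06 CPM (median 0.812) and was at least 6.61-fold higher with P. Floors and bounds of this kind cover counting error only. Regions of few counts also led the rule for single ligands: chr13:110535806-110536159, 135 kb from the kinase gene Plk2, was at 0 in both controls and 2.67 and 1.08 CPM with P (at least 6.08-fold higher). Likewise, chr12:35687713-35688017, 153 kb from Ahr, the aryl hydrocarbon receptor gene, was at 0 and 2.63 and 1.22 CPM with cG (at least 6.23-fold). The region chr13:82429945-82430241, 633 kb from Cetn3, was at 0 in the control and at 1.13 and 0.593 CPM with L (at least 2.79-fold with L).

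Other distal regions separated the ligands. The region chr9:85524612-85525353, 162 kb from Ibtk, an inhibitor of Bruton's tyrosine kinase, opened most with P and L. It had 0.656 and 0.965 CPM in the control, 28.2 and 29.5 with P, 13.8 and 18.6 with L, 1.33 and 0.345 with H, 2.09 and 1.48 with S, 1.43 and 0.645 with cG and 2.89 and 1.78 with Z. P and L stood clear of every other single-ligand library. They raised it by 5.12 ± 0.28 (SE, adjusted p = 4.01e-40) and 4.30 ± 0.30 (SE, adjusted p = 1.68e-29) on the log2 scale, while the value for H was 0.14 ± 0.49 (SE, adjusted p = 0.897). Among the triplets, PLH had 23.4 and 22.8 CPM, PScG 10.1 and 12.9 and ZScG 3.35 and 1.52. Adding S to P changed it by -0.72 ± 0.17 (SE, adjusted p = 4.75e-04).

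A different order, lowest with P and highest with cG among the single ligands, was seen at chr1:64392725-64393448. This region lies 139 kb from Creb1, the gene of the cyclic AMP response factor CREB. It was at 0.437 and 0.289 CPM in the control, 0.0763 and 0.289 with P and 0.787 and 0.734 with Z, and rose to 8.59 and 9.10 with cG, 4.91 and 5.23 with S, 2.10 and 2.33 with H and 1.70 and 1.62 with L. The log2 fold change was 4.59 ± 0.45 (SE, adjusted p = 4.81e-17) with cG and 3.78 ± 0.48 (SE, adjusted p = 1.18e-11) with S, and -0.92 ± 0.85 (SE, adjusted p = 0.493) with P, which did not pass the threshold. In the presence of P the region still opened with the second ligand: PS differed from P by 4.68 ± 0.49 (SE, adjusted p = 3.04e-15) and PcG from P by 4.196 ± 0.51 (SE, adjusted p = 1.62e-11). The region chr13:101025715-101026441, 192 kb from the zinc transporter gene Slc30a5, was likewise low with P as a single ligand, with 0.437 and 0.386 CPM in the control, 0.916 and 0.794 with P, 4.73 and 5.28 with L, 8.31 and 6.46 with S and 4.93 and 7.81 with cG. Over the combinations, those with P included, it had 3.20 to 10.2 CPM (median 7.44). Its log2 fold change was 4.14 ± 0.41 (SE, adjusted p = 4.81e-17) with S and 1.04 ± 0.59 (SE, adjusted p = 0.221) with P. The region chr13:44320985-44321687, 409 kb from Jarid2, a partner of the Polycomb complex PRC2, had 0.656 and 1.54 CPM in the control, 1.68 and 2.46 with P and 8.11 and 9.04 with S (log2 2.92 ± 0.32 SE, adjusted p = 7.06e-15). PS differed from P by 2.22 ± 0.26 (SE, adjusted p = 9.16e-13).

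At chr10:120616276-120617223, 139.8 kb from the chromatin architecture gene Hmga2, P and cG moved accessibility in opposite directions. The control had 18.8 and 19.4 CPM, P closed the region to 6.33 and 4.91, H left it at 18.1 and 18.2, S libraries had 24.99 and 30.02, and cG raised it to 29.6 and 29.9. The log2 fold change was -1.77 ± 0.17 (SE, adjusted p = 5.52e-18) with P and 0.64 ± 0.14 (SE, adjusted p = 1.74e-04) with cG. With both P and S the level was 18.1 and 17.2 CPM, near the control. PS differed from P by 1.65 ± 0.16 (SE, adjusted p = 5.55e-17) and PcG from P by 1.82 ± 0.16 (SE, adjusted p = 1.18e-19). The region chr8:128243925-128245037, 114 kb from Nrp1, a semaphorin co-receptor gene, and inside the non-coding gene A930035F09Rik, was high with P: 3.17 and 2.60 CPM in the control, 24.8 and 25.4 with P, 11.2 and 10.4 with Z, 11.3 and 9.38 with L and 3.53 and 5.04 with S. P raised it by 3.12 ± 0.23 (SE, adjusted p = 7.68e-27) on the log2 scale and Z by 1.90 ± 0.26 (SE, adjusted p = 2.58e-09). PS differed from P by -1.37 ± 0.18 (SE, adjusted p = 2.05e-10). The region chr11:64627265-64628606, 104 kb from the heparan sulfate enzyme gene Hs3st3a1, was likewise highest with P, at 27.6 and 30.4 CPM against 6.12 and 4.92 in the control and 5.89 and 4.66 with cG (log2 2.40 ± 0.20 SE, adjusted p = 4.27e-23 with P).

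**Figure D3:**
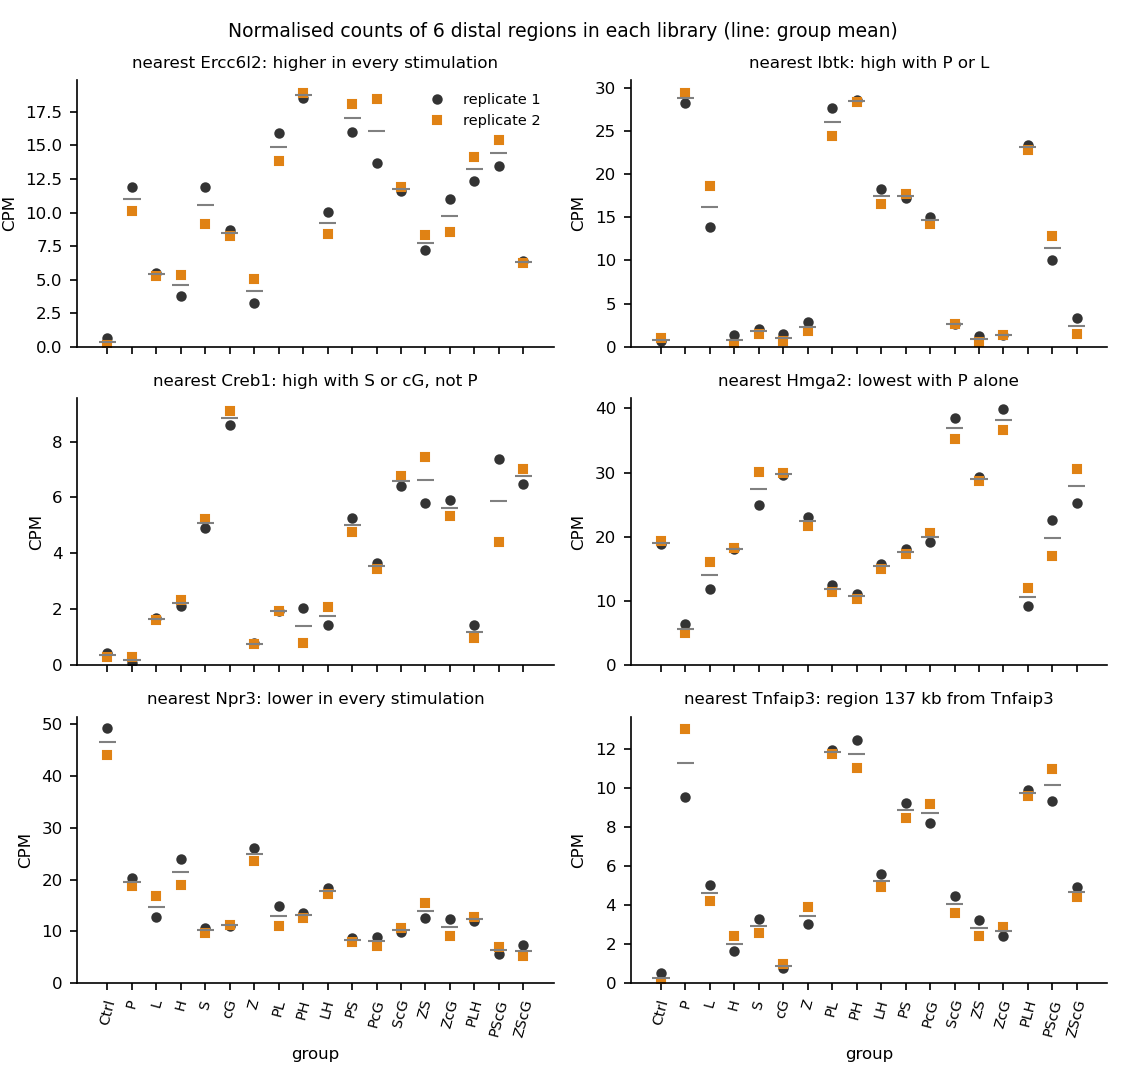
Normalised counts in CPM of 6 distal regions in each of the 36 libraries, 1 panel a region, with 1 point a library (black circle, replicate 1; orange square, replicate 2) and a grey line at the group mean, groups along the horizontal axis. The region near Ercc6l2 is lowest in the control (0.656 and 0.0965 CPM) and the region near Npr3 highest there (49.3 and 44.0), while the region near Ibtk is highest with P (28.2 and 29.5) and the region near Creb1 with cG (8.59 and 9.10).

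For each single ligand the rule also took the region with the largest rise among those called with that ligand and with no other single ligand. All 6 had low counts, so a region called with 1 ligand may not have been detectable with the others at this depth. For S it was chr13:44140375-44140634, 337 kb from Cd83, a maturation marker gene of dendritic cells, at 0 in both control libraries, 1.31 and 1.05 CPM with S, 0 and 0.502 with cG and 1.89 and 2.21 with PScG, at least 3.81-fold higher with S. For H it was chr10:118634400-118634600, 189 kb from the interferon gamma gene Ifng, with 0 and 0.0965 CPM in the control, 0.572 and 0.862 with H, 0.381 and 0.794 with P and 0.565 and 0.377 with L, a set of values that overlap between ligands. The H call was marginal (adjusted p = 0.0464), with P at 0.0502. For P it was chr16:76766425-76766629 near the deubiquitinase gene Usp25 (0 in both controls, 0.381 and 0.939 CPM with P, at least 2.14-fold; the call was lost without either control library or without the P replicate 2, with adjusted p = 0.0598 to 0.0823). For L it was chr5:94990711-94990947 near Gm3183 (0 and 0.0965 and then 1.48 and 0.809 CPM with L). For cG it was chr7:40061279-40061556 near Gm33989 (0.219 and 0.0965 and then 0.637 and 2.01 with cG), and for Z it was chr3:119895460-119895754 near the splicing factor gene Ptbp2 (0.437 and 0 and then 1.31 and 1.89 with Z).

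The closing regions included some of the strongest distal sites of resting cells. The region chr4:80310396-80311914, 522 kb from the pigment gene Tyrp1, had 59.2 and 53.0 CPM in the control, 25.9 and 27.8 with P, 19.2 and 23.1 with L, 29.5 and 29.3 with H, 14.4 and 12.2 with S, 14.8 and 14.0 with cG and 28.2 and 41.9 with Z. Over the combinations it had 8.99 to 22.8 CPM (median 16.1). Every stimulated library lay below both controls, and the log2 fold change was -2.07 ± 0.14 (SE, adjusted p = 1.28e-30) with S and -1.06 ± 0.13 (SE, adjusted p = 1.25e-11) with P. At chr15:11715934-11716934, 123 kb from Npr3, a natriuretic peptide receptor gene, the control had 49.3 and 44.0 CPM, P 20.3 and 18.9, S 10.7 and 9.78, cG 11.1 and 11.2 and Z 26.1 and 23.6. S changed it by -2.19 ± 0.16 (SE, adjusted p = 1.00e-27) and Z by -0.91 ± 0.15 (SE, adjusted p = 3.15e-06) on the log2 scale, and S on top of P by a further -1.24 ± 0.16 (SE, adjusted p = 2.03e-10). Ranked by rule as lower in most stimulations were chr4:34269046-34269722 near the sperm gene Spaca1, chr14:103945634-103946190 near the endothelin receptor gene Ednrb and chr2:160171086-160171555 near Gm826. The first had 21.7 and 18.04 CPM in the control, 2.37 and 3.11 with P, 2.05 and 2.64 with L and 9.84 and 7.13 with Z (log2 -3.06 ± 0.29 SE, adjusted p = 4.70e-18 with L). The second had 10.2 and 7.24 CPM and then 1.45 and 1.66 with P and 0.981 and 1.41 with S (log2 -2.84 ± 0.45 SE, adjusted p = 8.33e-08 with S). The third had 13.4 and 8.68 CPM and then 1.57 and 1.97 with S (log2 -2.63 ± 0.37 SE, adjusted p = 1.80e-09).

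Several regions closed with S and cG and were at or nearer the control level with P, although S and P were not compared directly. At chr16:77220127-77220790, 103 kb from Usp25, the control had 23.2 and 19.97 CPM, P 24.3 and 25.9, Z 19.6 and 21.2, L 8.62 and 9.92, S 5.30 and 6.70 and cG 4.85 and 4.23. P and Z overlapped the control or exceeded it, and the log2 fold change was -2.25 ± 0.20 (SE, adjusted p = 6.40e-20) with cG, -1.84 ± 0.19 (SE, adjusted p = 4.07e-16) with S and 0.22 ± 0.17 (SE, adjusted p = 0.397) with P. Adding S to P lowered the region, with a log2 difference of -1.71 ± 0.18 (SE, adjusted p = 1.12e-15). The larger region chr8:8142742-8143877, 473 kb from Efnb2, the ephrin B2 gene, had 82.7 and 77.6 CPM in the control, 91.9 and 92.3 with P, 103 and 113 with Z, 38.7 and 43.8 with S and 37.4 and 41.1 with cG. It fell with S (log2 -0.96 ± 0.10 SE, adjusted p = 1.26e-15) and with cG (log2 -1.03 ± 0.10 SE, adjusted p = 6.14e-17), and PS differed from P by -1.03 ± 0.10 (SE, adjusted p = 4.19e-18). Near Nr2f2, the gene of the orphan receptor COUP-TFII, chr7:70098886-70099615 had 34.3 and 28.3 CPM in the control, 21.1 and 17.4 with P, 24.4 and 26.3 with Z, 8.83 and 9.35 with S and 6.13 and 7.67 with cG (log2 -2.17 ± 0.18 SE, adjusted p = 1.19e-22). Here PS differed from P by -1.13 ± 0.17 (SE, adjusted p = 2.12e-08). Another site 380.1 kb from Nr2f2, chr7:69971393-69971867, was named by rule as one of the lowest with ZScG, at 0.670 and 0.276 CPM against 12.2 and 7.62 in the control and 6.26 and 5.20 with P. S changed it by -3.28 ± 0.39 (SE, adjusted p = 1.40e-12), log2 scale. With L the rule named chr1:55903213-55903707, 149 kb from Plcl1 (10.6 and 8.20 CPM in the control and 0.565 and 1.08 with L, log2 -3.46 ± 0.40 SE, adjusted p = 6.05e-13). With P and L it named chr2:56294605-56295213, 696 kb from the potassium channel gene Kcnj3 (8.74 and 9.17 CPM, then 1.22 and 1.16 with P and 0.848 and 1.02 with L, log2 -3.23 ± 0.42 SE, adjusted p = 9.86e-11 for L).

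Distal regions came in runs of neighbours. Joining regions less than 50 kb apart gave 1799 runs, of which 817 held 1 region, while 203 runs of 10 or more held 4173 regions. The run with the most members, chr12:114931177-115925880, held 96 regions inside the immunoglobulin heavy chain locus Igh. The variable gene segments there are not counted as protein-coding genes in the annotation used, so that these regions pass the distance rule. More of its regions fell than rose with S, L and cG: 4 rose (4.17%) and 44 fell (45.8%) with S, beside 14.1% and 13.8% of all peaks. With L and cG the counts were alike: 2 rose (2.08%) and 42 fell (43.8%) with L, beside 11.2% and 11.1% of all peaks, and 4 rose (4.17%) and 41 fell (42.7%) with cG, beside 11.6% and 11.6% of all peaks. The other counts were 10 higher (10.4%) and 10 lower (10.4%) with P, beside 11.1% and 9.45% of all peaks, and 1 higher (1.04%) and 0 lower (0%) with Z, beside 4.16% and 1.75% of all peaks. Its median log2 fold change with S was -1.05, where that of all peaks was 0.00. The summed signal of its 96 regions was 515 and 458 CPM in the control, 433 and 427 with P, 454 and 467 with Z, 259.9 and 255 with L, 212 and 224 with S and 244 and 244 with cG. The Z sums overlapped those of the control, the P sums lay a little below both, and the libraries of L, S and cG lay clear below every library of P, Z and the control. Its strongest region, chr12:115311877-115313015, had 34.4 and 27.01 CPM in the control, 45.7 and 42.3 with P and 8.83 and 11.3 with S. S changed it by -1.60 ± 0.15 (SE, adjusted p = 1.49e-18) on the log2 scale, and PS differed from P by -1.29 ± 0.13 (SE, adjusted p = 2.85e-15). Igh is rearranged in B cells, and the B cell marker Pax5 had no peak within 1 kb. Cd79a had 15.7 and 13.6 CPM in the control and 11.1 and 9.35 with S, and the part of B-lineage cells was not tested. The antigen receptor loci together held 176 distal regions, and of the 7701 tested distal regions without them 1036 rose (13.5%) and 1651 fell (21.4%) with S.

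In the runs near Morrbid and near Runx1 more regions were called higher than lower in each of the 17 stimulations. The run chr2:128272897-128487398, with 57 regions, lies between Spdye4c and Bcl2l11, the gene of the death-inducing protein BIM, and covers Morrbid, a long non-coding RNA known to restrain Bcl2l11 in short-lived myeloid cells. There 22 rose (38.6%) and 1 fell (1.75%) with P, beside 11.1% and 9.45% of all peaks. With the other ligands 20 rose (35.1%) and 0 fell (0%) with L, beside 11.2% and 11.1% of all peaks, 19 rose (33.3%) and 2 fell (3.51%) with S, beside 14.1% and 13.8% of all peaks, and 18 rose (31.6%) and 0 fell (0%) with cG, beside 11.6% and 11.6% of all peaks. Fewer were called with Z: 6 rose (10.5%) and 0 fell (0%) with Z, beside 4.16% and 1.75% of all peaks. The summed signal was 122 and 138 CPM in the control, 207 and 217 with P, 215 and 213 with L, 192 and 193 with S, 214 and 219.6 with cG and 159 and 168 with Z, so every single ligand was above the control and Z least so. The run near Runx1, the gene of a blood transcription factor, at chr16:92943835-93330750 with 48 regions, had 18 higher (37.5%) and 0 lower (0%) with P, beside 11.1% and 9.45% of all peaks. In the same run the counts were 16 higher (33.3%) and 0 lower (0%) with L, beside 11.2% and 11.1% of all peaks. The run chr12:25197233-25648985, 73 regions nearest to Id2, whose product inhibits helix-loop-helix factors and is needed for some dendritic cells, had 14 higher (19.2%) and 0 lower (0%) with P, beside 11.1% and 9.45% of all peaks. It had sums of 255 and 274 CPM in the control and 328 and 344 with P. The Id2 run also had 9 higher (12.3%) and 14 lower (19.2%) with S, beside 14.1% and 13.8% of all peaks, and its sums of 248 and 249 CPM lay a little below those of the control. The run chr10:96150450-96503657, 70 regions between Eea1 and Btg1, had 20 higher (28.6%) and 8 lower (11.4%) with S, beside 14.1% and 13.8% of all peaks. The regions of a run are close neighbours in 1 genome and are not independent of each other.

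**Figure D4:**
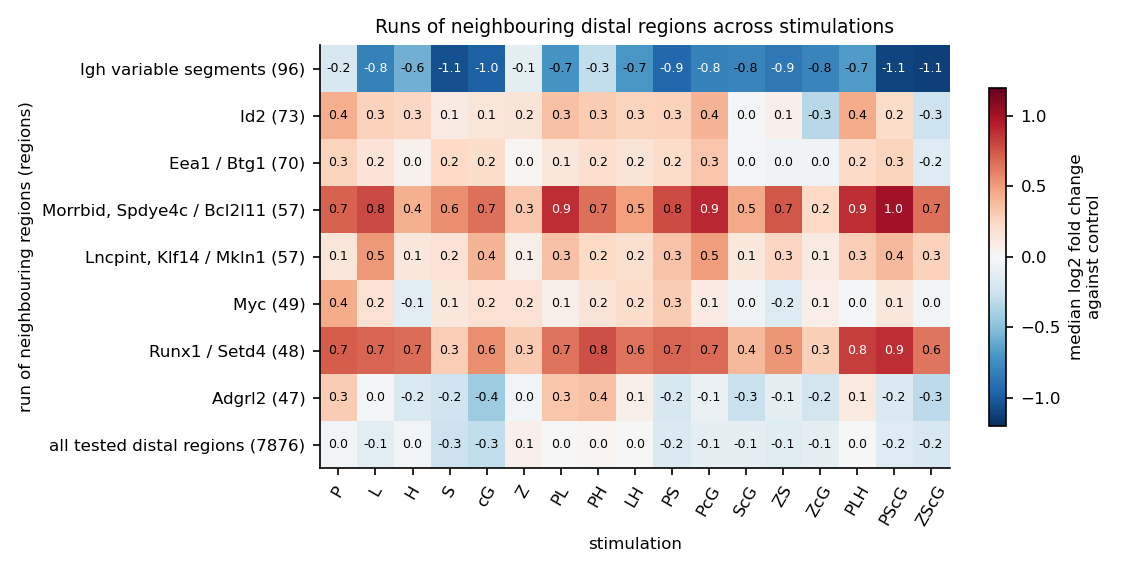
Median log2 fold change against the control over the distal regions of each of the 8 runs with the most members (vertical axis, with their number of regions), in each of the 17 stimulations (horizontal axis), as a colour with the value in each cell, and over all tested distal regions in the last line. The Igh run is at -1.05 with S and the Morrbid run at 1.01 with PScG.

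By nearest protein-coding gene, which need not be the gene a region acts on, the distal regions fell to 1260 genes. Of the 19 regions nearest to Tnfaip3, the gene of the NF-kappaB inhibitor A20, the counts were 10 higher (52.6%) and 0 lower (0%) with P, beside 11.1% and 9.45% of all peaks. They were 6 higher (31.6%) and 0 lower (0%) with L, beside 11.2% and 11.1% of all peaks, and 8 higher (42.1%) and 0 lower (0%) with S, beside 14.1% and 13.8% of all peaks. The site chr10:19152723-19153321, 137.3 kb from Tnfaip3 in the non-coding gene Gm20139, had 0.546 and 0 CPM in the control, 9.54 and 13.001 with P, 5.02 and 4.21 with L, 1.65 and 2.41 with H, 3.27 and 2.58 with S, 0.796 and 1.003 with cG and 3.02 and 3.88 with Z. Of these ligands P gave the highest levels, raising it by 5.41 ± 0.43 (SE, adjusted p = 1.92e-24) on the log2 scale, and S raised it by 3.46 ± 0.51 (SE, adjusted p = 8.51e-09). Its neighbour chr10:19126528-19126893 behaved differently: 0.656 and 0.0965 CPM in the control, 0.534 and 0.650 with P, 1.83 and 1.48 with S and 4.49 and 3.06 with PScG. The change was 3.34 ± 0.67 (SE, adjusted p = 1.36e-05) with PScG and 0.69 ± 0.79 (SE, adjusted p = 0.595) with P, on the log2 scale. A further site, chr10:19124658-19125233, was called higher with P and with none of the other single ligands (9.23 and 8.31 CPM against 2.51 and 3.96, log2 1.42 ± 0.31 SE, adjusted p = 1.79e-04), and PS differed from P by -1.59 ± 0.29 (SE, adjusted p = 7.58e-06).

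The next genes were picked after the counts were seen from those with many distal regions, and no test was made of a gene's list. Over all peaks 11.1% were called higher and 9.45% lower with P, 11.2% and 11.1% with L, 14.1% and 13.8% with S, and 11.6% and 11.6% with cG, to be read beside each count below. The 35 regions nearest to Runx1 all belong to the Runx1 run above and are not a separate set. They had 16 higher (45.7%) and 0 lower (0%) with P, 13 higher (37.1%) and 0 lower (0%) with L, and 11 higher (31.4%) and 0 lower (0%) with S. Near Jarid2 lay 44 regions, with 15 higher (34.1%) and 0 lower (0%) with S and 12 higher (27.3%) and 0 lower (0%) with L. The 27 nearest to Cdyl, a chromodomain corepressor gene, had 12 higher (44.4%) and 1 lower (3.70%) with S. Ptger4, the gene of a prostaglandin E2 receptor, had 41 regions, 13 higher (31.7%) and 0 lower (0%) with P. Dusp4, a MAP kinase phosphatase gene, had 26, with 10 higher (38.5%) and 0 lower (0%) with P. Prdm1, the gene of the repressor BLIMP-1, had 28, with 9 higher (32.1%) and 0 lower (0%) with P. At Tlr4 there were 25 regions, 8 higher (32%) and 0 lower (0%) with P, and 5 higher (20%) and 4 lower (16%) with S. At other genes the balance of calls was not the same for P and S, a difference that was not tested. The 65 regions nearest to Zeb2, the gene of a repressor that shapes myeloid fate, had 24 higher (36.9%) and 7 lower (10.8%) with P and 9 higher (13.8%) and 17 lower (26.2%) with S. The 35 nearest to Trps1 had 13 higher (37.1%) and 2 lower (5.71%) with P and 1 higher (2.86%) and 7 lower (20%) with S. Near Mef2c, the gene of a transcription factor of muscle and lymphoid cells, 30 regions had 0 higher (0%) and 15 lower (50%) with S and 0 higher (0%) and 14 lower (46.7%) with cG. Near Klf4, a monocyte differentiation factor gene, 49 had 2 higher (4.08%) and 17 lower (34.7%) with S.

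Of 57 cytokine, chemokine, interferon, transcription factor and marker genes looked up, 6 were the nearest gene of a distal region: Id2, Jun, Il12b, Cebpb, Ptgs2 and Irf8. The region chr1:150209629-150210084, 101 kb from Ptgs2, the gene of the prostaglandin enzyme COX-2, had 0.437 and 0.386 CPM in the control, 2.67 and 2.31 with P, 1.84 and 0.971 with L, 0.654 and 1.48 with S and 4.63 and 4.94 with PLH. It rose with P (log2 2.57 ± 0.55 SE, adjusted p = 1.11e-04) and had 4.67 and 6.62 CPM with PL. The region chr2:167804618-167806357, 114 kb from Cebpb, the gene of a myeloid C/EBP factor, rose with L, with 9.83 and 9.55 CPM in the control, 21.6 and 20.5 with L, 16.7 and 15.7 with H and 10.8 and 10.98 with P (log2 1.12 ± 0.18 SE, adjusted p = 8.48e-08 with L). The region chr8:120908981-120909533, 152 kb from Irf8, which encodes a factor required for some dendritic cells, had 1.42 and 0.482 CPM in the control and 2.36 and 2.34 with S (log2 1.32 ± 0.50 SE, adjusted p = 0.0356). That call was lost without control replicate 2 (adjusted p = 0.422), without either S library (adjusted p = 0.0975 and 0.0956) and by DESeq2 (adjusted p = 0.0503). Of the 5 regions nearest to Il12b, the gene of the p40 subunit of interleukin 12, chr11:44174514-44174927 closed, from 6.12 and 5.50 CPM to 2.42 and 2.09 with S (log2 -1.36 ± 0.34 SE, adjusted p = 9.69e-04). Its neighbour chr11:44164189-44164566 had 1.31 and 0.386 CPM in the control and 2.33 and 3.77 with PScG, and 1.05 and 0.923 with S. The 27 regions nearest to Jun, a subunit gene of AP-1, had 4 higher (14.8%) and 9 lower (33.3%) with S, beside 14.1% and 13.8% of all peaks. Their summed signal was 188 and 163 CPM in the control and 136 and 128 with S.

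The non-coding promoters whose sequences are shown above divide into opening and closing sites. The region over the Gm29010 promoter (chr2:128433340-128434092), in the Morrbid run, opened: 5.46 and 5.21 CPM in the control, 14.3 and 17.8 with P, 15.2 and 14.5 with L, 13.2 and 14.9 with S and 13.8 and 12.8 with cG. P raised it by 1.59 ± 0.20 (SE, adjusted p = 2.19e-11), log2 scale. The Morrbid promoter itself (chr2:128427987-128430185) was open in the control, at 13.002 and 16.5 CPM, and rose less, to 23.3 and 26.2 with cG (log2 0.74 ± 0.15 SE, adjusted p = 1.95e-05) and 21.3 and 26.2 with L (log2 0.68 ± 0.14 SE, adjusted p = 7.90e-05). The 4930471E19Rik promoter (chr10:120635787-120636601), a non-coding gene 144 kb from Msrb3 with an AP-1 match in its window, had 9.72 and 10.6 CPM in the control, 9.84 and 9.03 with P, 20.1 and 20.98 with Z, 28.1 and 28.7 with S and 21.2 and 29.7 with cG. The value for P did not pass the threshold (log2 -0.11 ± 0.17 SE, adjusted p = 0.714), and S raised it (log2 1.48 ± 0.15 SE, adjusted p = 9.36e-16). The Gm12708 promoter (chr4:95192830-95193637), 141 kb from Jun, closed from 19.4 and 17.8 CPM to 6.37 and 6.05 with PScG (log2 -1.58 ± 0.20 SE, adjusted p = 7.61e-12), with 9.68 and 13.05 with L. The Gm38397 promoter (chr13:110903049-110903681) went from 14.3 and 15.9 CPM to 5.21 and 5.98 with PScG (log2 -1.43 ± 0.22 SE, adjusted p = 1.51e-08), with 9.55 and 7.996 with S. The Mir99ahg promoter (chr16:77328794-77330081), of a gene that hosts a microRNA cluster, had 11.7 and 10.5 CPM in the control, 23.0 and 16.2 with P, 5.36 and 7.44 with S and 6.76 and 5.02 with cG. PcG differed from P by -1.22 ± 0.19 (SE, adjusted p = 1.97e-07) and PS from P by -1.13 ± 0.19 (SE, adjusted p = 6.86e-07). The region that overlaps the promoter of 9130015A21Rik, 159.8 kb from Ahr (chr12:35694820-35695232), was almost empty in the control, at 0.109 and 0 CPM, and opened with S to 3.53 and 2.40 and with ZScG to 4.02 and 3.59 (adjusted p = 1.99e-07 with S). That over the promoter of Mexis, a non-coding RNA known to help macrophages express the cholesterol exporter gene Abca1 109.8 kb away, had 6.12 and 5.98 CPM in the control, 4.88 and 8.74 with P and 1.53 and 2.10 with PcG (PcG against P, log2 -1.92 ± 0.32 SE, adjusted p = 7.70e-07).

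Adding a second ligand to P or Z allows comparisons without the control, within the groups of low or within those of high mitochondrial share. The share still differed between the groups compared. Its group mean was 49.5% in P, 51.6% in PL, 50.4% in PH, 45.8% in PS and 45.1% in PcG. In Z it was 61.7% and in ZcG 63.0%, and the part of this share in the calls was not tested. S on top of P closed distal regions more often than it opened them: 627 rose (7.96%) and 1170 fell (14.9%), against 9.36% and 8.78% of all peaks. cG on top of P gave 550 higher (6.98%) and 945 lower (11.998%), against 7.39% and 7.35%. When Z was present, cG gave 294 (3.73%) and 701 (8.90%), against 4.12% and 4.95%. Under total-count scaling the share of called regions that were higher in PcG against P moved from 36.8% to 47.4%. L on top of P gave 381 higher (4.84%) and 440 lower (5.59%), against 4.17% and 4.29%. H on top of P gave 183 (2.32%) and 86 (1.09%), against 1.7% and 0.968%. The largest rise by rule when S was added to P was at chr18:29180197-29180580, 1085 kb from the autophagy kinase gene Pik3c3, which had no count in either P library and 2.32 and 1.21 CPM with PS, at least 7.93-fold higher. When L, H or cG was added to P it was at chr11:31480294-31480619, 110.2 kb from Stc2, the stanniocalcin gene, with no count in either P library and 1.89 and 2.23 CPM with PcG, at least 9.24-fold. These comparisons share the same P libraries, so they are not independent of each other. The largest fall with S was at chr7:69970951-69971303, next to the Nr2f2 site above, from 3.74 and 3.90 CPM with P to 0.251 and 0.404 with PS (log2 -3.46 ± 0.58 SE, adjusted p = 6.07e-07). With cG it was at chr10:111843001-111843219 near Krr1, from 1.68 and 1.81 to 0.204 and 0.128 CPM (log2 -3.29 ± 0.71 SE, adjusted p = 2.16e-04). When cG was added to Z, chr4:68333409-68333813, 428 kb from Brinp1, went from 0 in both Z libraries to 1.45 and 3.01 CPM, at least 6.29-fold higher. In the same comparison chr1:143119285-143119785, 483 kb from the tumour suppressor gene Cdc73, went from 1.05 and 2.10 to 0 in both ZcG libraries, at least 4.52-fold lower.

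The triplets were compared with 7 pairs, within the groups of low or within those of high mitochondrial share. Few distal regions were called in these comparisons. The share still differed within some of them: its group mean was 58.3% in ZScG and 63.0% in ZcG, and 47.4% in PLH and 51.6% in PL. The part of this share in the calls was not tested. Comparisons of PScG with ScG and of ZScG with ZS were not made. PLH against PL gave no call among distal regions at an adjusted p under 0.05 by edgeR, and DESeq2 called none either. By edgeR 354 of 7876 had an unadjusted p under 0.05, no more than such a cut gives when nothing changes. Of all peaks 0.000837% were called. PLH against PH called 10 higher and 16 lower (0.330%; all peaks 0.248%), and PLH against LH 35 and 15 (0.635%; 0.546%). PScG against PS called 49 and 28 (0.978%; 0.602%), PScG against PcG 12 and 24 (0.457%; 0.412%), and ZScG against ScG 24 and 53 (0.978%; 0.772%). Of the comparisons made, the largest share was that for S added to ZcG, where ZScG against ZcG called 61 higher and 188 lower (3.16%; 2.79%). Under other scalings the share of these calls that were higher moved from 24.5% to 56.6% (total counts) or 37.6% (offsets that depend on abundance) in ZScG against ZcG, and from 38.5% to 68.4% (total counts) in PLH against PH. It moved from 70% to 83.7% (total counts) or 80.8% (abundance) in PLH against LH, from 33.3% to 20.5% (total counts) in PScG against PcG, and from 31.2% to 48.1% (abundance) in ZScG against ScG. Single regions behind these few calls rested on low counts. At chr13:35539274-35539765, 120.1 kb from Cdyl, PLH had 1.63 and 2.07 CPM and LH 0.124 and 0.397 (log2 2.86 ± 0.58 SE, adjusted p = 0.00256). Its highest single-ligand levels were with S, at 6.48 and 3.75 CPM against 0.219 and 0.772 in the control (log2 3.30 ± 0.50 SE, adjusted p = 1.69e-08). The PLH call was lost without LH replicate 1 (adjusted p = 0.211) and without PLH replicate 2 (adjusted p = 0.0691). At chr14:74218043-74218407, 422 kb from Htr2a, PScG had 2.07 and 2.99 CPM and PS 0.251 and 0.686 (log2 2.33 ± 0.54 SE, adjusted p = 0.0108). At chr13:110907579-110907945 near Actbl2 the values were 0.359 and 0.427 and 2.38 and 2.06 (log2 -2.45 ± 0.56 SE, adjusted p = 0.00956). The first was lost without either PS library or without PScG replicate 2 (adjusted p = 0.0505 to 0.346), and the second without any 1 of the 4 libraries compared (adjusted p = 0.0677 to 0.207). Between ZScG and ZcG the region near Cdc73 above had 0.447 and 1.79 CPM and 0 and 0, at least 3.22-fold higher with ZScG. The same ZcG libraries without a count gave its fall against Z.

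A few distal regions carried a large part of the counts. Whether counts so far above the median of 1.84 CPM reflect open chromatin was not tested. The region chr2:98666084-98667466, 1034 kb from Lrrc4c, had a mean of 16592 CPM and held 23.4% of the counts of all tested distal regions. Next, chr12:97061277-97061945, 1140.3 kb from Galc, had 8995 CPM and 12.4%. The third, chr14:19415571-19419795 near Gm2244, had 4012 CPM and 5.66%. In all 15 distal regions had a mean above 100 CPM, 4 of them on chromosome 2, the first included. The chromosome 12 region was high in the groups of high mitochondrial share: it had 15232 and 13311 CPM in the control, 15905 and 14326 with Z and 12158 and 12054 with ZScG. It had 7377 and 6469 with P, 6606 and 7040.1 with S and 6185 and 5807 with PScG. Over the 10 libraries of the 5 groups of high mitochondrial share it ranged from 11286 to 16118 CPM, and over the other 26 from 5342 to 12562, or at most 8677 without the 2 ZS libraries. The log2 fold change was -1.04 ± 0.16 (SE, adjusted p = 7.98e-05) with P and 0.08 ± 0.16 (SE, adjusted p = 0.841) with Z, and the part of the mitochondrial share in this was not tested. With offsets that depend on abundance the value for P was -0.07 (adjusted p = 0.740), so the call depends on the scaling. Without ZS, chr6:9889792-9890311 was also higher in the groups of high share (at least 1659 CPM) than in the others (at most 1306). The same held for chr5:60042571-60043224 (1321 and 1127), chr4:80002607-80003402 (1038 and 852), chr4:80003742-80004289 (284 and 251) and chr1:7396579-7398667 (112 and 105). The remaining regions above 100 CPM overlapped between these sets. The chromosome 2 region did not separate the sets, at 15439.8 and 15916 CPM in the control, 19672 and 23006 with H, 19876 and 22272 with PLH and 9689 and 7716 with PS. Its direction against the control is not settled, since offsets that depend on abundance turned it from -0.51 to 0.54 with P and from -0.57 to 0.25 with S. Without the regions above 100 CPM the summed signal of the other 7861 distal regions was 34175 and 32599 CPM in the control, 32999 and 33042 with P, 34152 and 34649.9 with Z, 28487 and 28660.4 with L, 26873 and 27500.2 with S and 26945 and 27737 with cG. The sums of L, S and cG lay below the control and those of P and Z overlapped it.

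**Figure D5:**
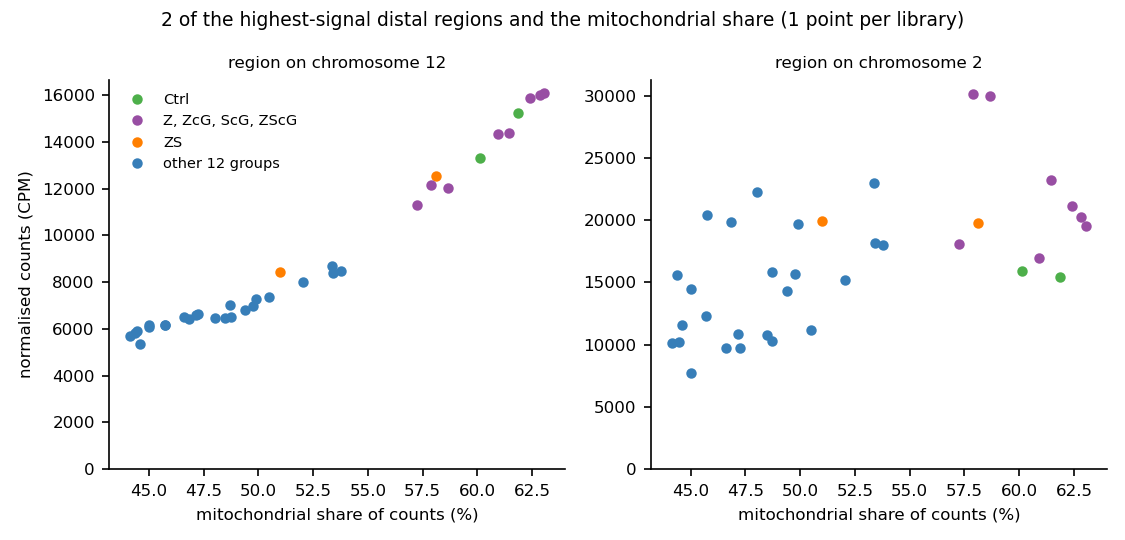
Normalised counts in CPM (vertical axis) of 2 of the distal regions with the most signal against the mitochondrial share of counts in percent (horizontal axis), 1 point for each of the 36 libraries, coloured by group. The chromosome 12 region lies between 11286 and 16118 CPM in the 5 groups of high share and between 5342 and 12562 in the others.

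The tested distal regions farthest from any protein-coding gene were lower with P or S. The farthest, chr1:102628087-102628453, lies 2137 kb from Cntnap5b, a neuronal adhesion gene, and had 9.40 and 13.1 CPM in the control, 4.81 and 3.11 with P, 3.32 and 4.21 with L, 3.86 and 3.20 with S, 10.2 and 7.66 with Z and 15.8 and 12.7 with ZScG. It fell with S (log2 -1.68 ± 0.26 SE, adjusted p = 1.71e-08) and P (log2 -1.52 ± 0.26 SE, adjusted p = 6.13e-07), and ZScG stood at or above the control level. The next, chr14:90911044-90911422, 2102 kb from the protocadherin gene Pcdh9, had 13.7 and 11.2 CPM in the control, 6.64 and 6.36 with P (log2 -0.93 ± 0.21 SE, adjusted p = 2.17e-04) and 15.1 and 18.1 with ZScG. The region chr14:82065175-82065705, 2042 kb from Olfm4, had 9.46 and 7.29 CPM with P, 8.30 and 7.81 in the control, and fell to 3.07 and 2.71 with S (log2 -1.48 ± 0.28 SE, adjusted p = 6.51e-06).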

How the data were processed

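The deposited table holds raw read counts per peak for 36 ATAC-seq libraries, with no normalization by the authors, per the file headers and its whole-number values. The submitters' processing notes list Bowtie2 2.2.9, MACS2 1.4, bedtools and featureCounts with build mm10, without their order or settings, and whether replicates were pooled to call peaks is not given in the sources used here. Samples were grouped by the ligands in the labels.

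Distances were measured to the 21900 protein-coding genes of the RefSeq GRCm38.p6 gene table. The mitochondrial peak was left out, peaks were filtered with edgeR's filterByExpr (minimum count 10) and libraries were scaled by TMM, which sets the CPM values. One edgeR 4.0.16 quasi-likelihood fit (R 4.3.3) over all 18 groups gave 29 contrasts with 18 residual degrees of freedom, and p-values were Benjamini-Hochberg adjusted over all 119464 tested peaks in each contrast. Standard errors are the log2 fold change divided by the root of F.

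Regions were named by ranks of fold change, mean signal, distance, number of calls and run size, and others were chosen after their values were seen. Ranks of fold change in a contrast were counted among regions with a mean of at least 1 CPM and both libraries beyond both libraries of the other group. The regions called with 1 single ligand and no other were ranked without these conditions. The members and lists were chosen with earlier results of these data known. Alternatives were other scalings, filters, thresholds and distance rules, DESeq2 1.42.0, fitting only the groups compared, thinning to the lowest depth, a replicate block, and leaving out each library, for which the dispersion trend was estimated on every 5th peak. Peak sequences were not used here.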

Additional observations from a re-analysis of the deposited data

How the results depend on the processing

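The share of distal regions called, both directions together, is compared here with that of the main analysis, and a group's letters alone mean that group against the control. At an adjusted p under 0.01 the share called moved by more than 1.5 times to 15.7% (P), 16.6% (L), 5.59% (H), 19.6% (cG) and 4.06% (Z). For PL, PH, LH, ZS and ZcG it became 20.9%, 20.7%, 15.9%, 21.1% and 17.7%. For PL against P, PH against P, PS against P, PcG against P and ZcG against Z it became 5.37%, 1.35%, 14.5%, 11.1% and 6.97%. For PLH against PH, PLH against LH, PScG against PS, PScG against PcG, ZScG against ScG and ZScG against ZcG it became 0.102%, 0.178%, 0.330%, 0.190%, 0.241% and 1.09%. With libraries thinned to the lowest depth the share called moved by more than 1.5 times to 6.39% (H), 5.78% (PL against P), 1.49% (PH against P), 15.1% (PS against P) and 11.9% (PcG against P). For ZcG against Z, PLH against PH, PLH against LH, PScG against PS and PScG against PcG it became 8.28%, 0.0773%, 0.219%, 0.399% and 0.129%. For ZScG against ScG and ZScG against ZcG it became 0.322% and 1.48%. With DESeq2 the share called moved by more than 1.5 times to 5.29% (PH against P), 2.07% (PLH against PH), 1.25% (PLH against LH), 2.25% (PScG against PS) and 1.76% (PScG against PcG). For ZScG against ScG and ZScG against ZcG it became 4.65% and 8.19%. With only the groups compared in the fit the share called moved by more than 1.5 times to 0.0560% (PLH against PL), 1.06% (PLH against PH), 1.37% (PLH against LH), 1.80% (PScG against PS) and 1.47% (PScG against PcG). Over 100 kb from every gene, non-coding genes included, the share called moved by more than 1.5 times to 0.687% (PLH against PH) and 1.47% (PScG against PS). With total counts the share called moved by more than 1.5 times to 1.84% (ZScG against ZcG). With offsets that depend on abundance the share called moved by more than 1.5 times to 1.59% (ZScG against ZcG). Part of the DESeq2 difference is in its denominator, since its own filter left adjusted p-values for fewer regions (4080 in PH against P, 1694 in PLH against PH, 3587 in PLH against LH, 3420 in PScG against PS, 2957 in PScG against PcG, 1851 in ZScG against ScG and 2795 in ZScG against ZcG). Leaving out 1 library left its group with 1 sample, whose spread was taken from the other groups. Without 1 library the shares were for P 16.1% to 19.2% (all libraries 24.97%), for L 16.4% to 18.7% (all libraries 26.1%) and for H 4.67% to 7.24% (all libraries 11.1%). For S they were 23.9% to 26.7% (all libraries 34.9%), for cG 19.7% to 22.5% (all libraries 29.4%) and for Z 3.94% to 4.47% (all libraries 7.28%). For PL they were 22.2% to 24.1% (all libraries 31.5%), for PH 21.5% to 22.9% (all libraries 31.2%) and for LH 15.8% to 17.7% (all libraries 24.4%). For PS they were 27.7% to 31.6% (all libraries 39.8%), for PcG 27.6% to 29.7% (all libraries 38.1%) and for ScG 23.6% to 26.1% (all libraries 32.9%). For ZS they were 20.9% to 25.2% (all libraries 32.5%), for ZcG 17.6% to 21.1% (all libraries 27.3%) and for PLH 23.4% to 25.5% (all libraries 33.6%). For PScG they were 30.7% to 33.7% (all libraries 41.5%) and for ZScG 26.6% to 30.6% (all libraries 37.2%). With added ligands and in triplets they were for PL against P 5.18% to 6.38% (all libraries 10.4%), for PH against P 1.10% to 1.82% (all libraries 3.42%) and for PS against P 12.9% to 15.6% (all libraries 22.8%). For PcG against P they were 10.8% to 11.9% (all libraries 18.98%), for ZcG against Z 6.55% to 8.41% (all libraries 12.6%) and for PLH against PL 0% to 0.0253% (all libraries 0%). For PLH against PH they were 0.0380% to 0.0886% (all libraries 0.330%), for PLH against LH 0.0633% to 0.241% (all libraries 0.635%) and for PScG against PS 0.114% to 0.620% (all libraries 0.978%). For PScG against PcG they were 0.0506% to 0.215% (all libraries 0.457%), for ZScG against ScG 0.101% to 0.506% (all libraries 0.978%) and for ZScG against ZcG 0.987% to 1.68% (all libraries 3.16%). Against the control, the shares that moved by more than 1.5 times were as follows. With P it was 16.1% without P replicate 2. With L it was 16.4% without Ctrl replicate 1 and 16.8% without L replicate 1. With H it was 4.67% without Ctrl replicate 1, 7.24% without Ctrl replicate 2, 5.82% without H replicate 1 and 5.80% without H replicate 2. With Z it was 3.94% without Ctrl replicate 1, 4.27% without Ctrl replicate 2, 4.47% without Z replicate 1 and 4.41% without Z replicate 2. With LH it was 15.8% without Ctrl replicate 1 and 16.1% without LH replicate 1. With ZS it was 20.9% without ZS replicate 2. With ZcG it was 17.6% without ZcG replicate 2. Any 1 of the 4 libraries compared moved the share that far for PL against P, PH against P, PcG against P, ZcG against Z, PLH against PH, PLH against LH, PScG against PS, PScG against PcG, ZScG against ScG and ZScG against ZcG. For PS against P it was 14.9% without P replicate 2 and 12.9% without PS replicate 2. For PLH against PL it was 0.0253% without PL replicate 2. With RLE size factors the median log2 fold change over distal regions moved to -0.00287 (P), -0.12 (L), -0.29 (cG), 0.0214 (PL) and 0.0635 (PH). For PS, PcG, PScG and ZScG it became -0.16, -0.0858, -0.13 and -0.17. With total counts the median log2 fold change over distal regions moved to 0.29 (P), 0.29 (L), 0.25 (H), 0.10 (S) and 0.0452 (cG). For Z, PL, PH, LH and PS it became 0.0357, 0.31, 0.36, 0.30 and 0.22. For PcG, ScG, ZS, ZcG and PLH it became 0.31, -0.0389, 0.0501, -0.16 and 0.36. For PScG and ZScG it became 0.20 and -0.13. With offsets that depend on abundance the median log2 fold change over distal regions moved to -0.0476 (P), -0.18 (L), -0.0946 (H), 0.0290 (Z) and -0.0748 (PL). For PH, LH, PS, PcG and ScG it became -0.00779, -0.0519, -0.21, -0.16 and -0.17. For ZS, ZcG, PLH, PScG and ZScG it became -0.21, -0.13, -0.0769, -0.24 and -0.27. The sign of single regions reversed in 4 cases, all with offsets that depend on abundance: 0.54 with P at the chromosome 2 region of highest signal, 0.58 with L at the chromosome 2 region of highest signal, 0.25 with S at the chromosome 2 region of highest signal, 0.11 with S at the region near Gm2244. Of the other comparisons of single named regions with an alternative, 362 kept the direction and lost the call. The remaining 4231 kept the direction, and either kept the call or had no adjusted p to judge it by. Counted by result, 133 of 463 results of named regions lost their call or turned in at least 1 alternative, leaving out a library included. The replicate numbers do not pair the samples: over 153 pairs of groups the correlation of the difference between replicates was -0.0400 to 0.0300. With the replicate number as a block 34.7% of distal regions were called with S and 22.6% for PS against P, with no share moved by 1.5 times. The causes were not tested, apart from those that follow from a stricter threshold or fewer counts. Precision is limited by 2 libraries a group and by low counts, since a distal region had a median of 13 to 42 counts in a library.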
